A study of Rattus norvegicus with 18 samples.

Results

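Expression of 9 genes that mark 2 kinds of innate immune cell was followed in rat skeletal muscle. They are 9 of the 30560 entries of the deposited table, found by their symbols, and all 9 were present. The neutrophil genes are Csf3r, Cxcr2, Mmp8, S100a8 and S100a9, and the mast cell genes are Kit, Ms4a2, Cpa3 and Cma1. Their identifiers in the table are ENSRNOG00000008759 (Csf3r), ENSRNOG00000063618 (Cxcr2), ENSRNOG00000009907 (Mmp8), ENSRNOG00000011557 (S100a8), ENSRNOG00000011483 (S100a9), ENSRNOG00000002227 (Kit), ENSRNOG00000020993 (Ms4a2), ENSRNOG00000011181 (Cpa3) and ENSRNOG00000020563 (Cma1). Bulk RNA of frozen tibialis anterior sections was sequenced from rats in 18 libraries and 5 groups. At 9 months of age there were 3 wild-type (WT) libraries, 3 from rats of the genotype labelled DMD, a rat form of Duchenne muscular dystrophy, and 6 from rats labelled p16-null DMD, which carry the DMD genotype and lack p16. The others were WT rats of 3 months (3 libraries) and of 18 months (3 libraries). The 9-month genotypes were compared with each other, and the 18-month WT rats with the 3-month ones. Neither the alleles nor the strain and sex are stated in the labels, and since no label says that each library is a different animal, p-values here measure the spread between libraries only, which may be technical.

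Neutrophils are short-lived granulocytes that leave the blood within hours of tissue injury, drawn by chemokines that bind CXCR2 and kept alive by the growth factor G-CSF, whose receptor Csf3r encodes. They carry ready-made enzymes such as the collagenase Mmp8 and large amounts of calprotectin, the pair of calcium-binding proteins S100a8 and S100a9. Mast cells live in connective tissue for long periods, depend on stem cell factor and its receptor Kit, bind IgE through a receptor whose beta chain is Ms4a2, and store the proteases carboxypeptidase A3 (Cpa3) and chymase (Cma1) in granules. Both kinds of cell are known from dystrophic muscle. In bulk RNA, fewer cells of a type and less RNA per cell cannot be told apart.

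Library totals ran from 9607817 to 21992623 counts. Levels are given as CPM (counts-per-million) on effective library sizes from the trimmed mean of M-values (TMM). The TMM factors were 0.728 to 0.801 in WT muscle at 9 months and 1.04 to 1.27 in the 9 dystrophic libraries, so the choice of scale matters for small differences. Dystrophin (Dmd) stood at 114 to 167 CPM in the 9-month WT libraries, 31.4 to 44.3 CPM in the DMD libraries and 30.9 to 54.0 CPM in those labelled p16-null DMD. Cdkn2a, the p16 locus, stood at 10.7 to 19.4 CPM in DMD and at 10.1 to 15.3 CPM in p16-null DMD muscle. That entry sums every transcript of a locus that also encodes a second protein, and how p16 was removed is not stated, so the entry checks nothing about the p16-null label. The tissue label was met by its markers: 6 of the 7 muscle fibre genes had an entry, and their summed CPM was 27314 or more in every library.

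Sequence upstream of the start was found in RefSeq's rat table (assembly GRCr8) for 7 of the 9 genes, and not for S100a8 and Ms4a2. Shown are the 250 bases before the start of 4 genes, chosen as a receptor and an effector gene of neutrophils and both granule protease genes of mast cells, because the genes of each pair were high or low in the same dystrophic libraries (r = 0.83 and 0.90, n = 9). Capitals mark 3 motifs searched on both strands: GATAA, the core bound by GATA factors, GAGGAA, a core bound by PU.1, and TTGCNNAA, a C/EBP core. A motif on the minus strand is shown as its reverse complement.
Csf3r, chr5:143582970-143583219, plus strand: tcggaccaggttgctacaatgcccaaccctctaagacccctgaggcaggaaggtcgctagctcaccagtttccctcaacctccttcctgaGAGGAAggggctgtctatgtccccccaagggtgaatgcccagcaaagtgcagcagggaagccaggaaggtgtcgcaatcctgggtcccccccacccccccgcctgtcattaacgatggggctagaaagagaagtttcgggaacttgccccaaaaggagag
S100a9, chr2:178490623-178490872, minus strand: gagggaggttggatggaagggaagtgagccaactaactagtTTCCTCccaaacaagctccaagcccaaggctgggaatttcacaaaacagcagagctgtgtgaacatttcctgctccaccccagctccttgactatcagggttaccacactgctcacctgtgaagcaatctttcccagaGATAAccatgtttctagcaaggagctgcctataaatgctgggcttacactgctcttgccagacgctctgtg
Cpa3, chr2:104673238-104673487, minus strand: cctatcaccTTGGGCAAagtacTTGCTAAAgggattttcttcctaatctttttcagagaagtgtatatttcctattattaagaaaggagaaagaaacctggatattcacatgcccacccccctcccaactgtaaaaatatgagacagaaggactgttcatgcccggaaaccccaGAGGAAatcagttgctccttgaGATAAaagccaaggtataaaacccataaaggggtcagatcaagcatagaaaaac
Cma1, chr15:33390134-33390383, minus strand: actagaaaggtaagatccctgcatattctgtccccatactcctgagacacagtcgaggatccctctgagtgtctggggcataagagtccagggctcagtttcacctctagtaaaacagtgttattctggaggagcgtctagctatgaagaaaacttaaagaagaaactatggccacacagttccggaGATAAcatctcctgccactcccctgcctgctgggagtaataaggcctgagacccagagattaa

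GATAA was present upstream of 2 of the 3 mast cell genes with a sequence (Cpa3, beginning at base -54 from the start, and Cma1, at base -63) and of 2 of the 4 neutrophil genes (S100a9 at -71 and Mmp8 at -16). Of all 27457 rat upstream windows of that length, 23.2% hold that motif. The PU.1 core GAGGAA stood upstream of Csf3r, S100a9 and Cpa3, against 23.2% of all windows, and TTGCNNAA upstream of Mmp8 and Cpa3, with 2 matches each, against 9.20% of all windows. These are matches of letters and not measured binding.

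All 5 neutrophil genes were higher in DMD than in WT muscle at 9 months. The difference was 3.20 to 4.61 on the log2 scale for 4 of them, Mmp8 was nearly absent from WT muscle, and in each case all 3 DMD libraries lay above all 3 WT libraries. Of all 14801 genes tested in the 9-month libraries, 26.4% were called higher in DMD (48.3% in either direction) at a Benjamini-Hochberg adjusted p under 0.05 in edgeR's quasi-likelihood test, and in 30.7% the DMD libraries all lay above the WT ones. The median gene moved by 0.11.

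Csf3r, the G-CSF receptor, had 9, 2 and 2 counts in the WT libraries at 9 months and 76, 219 and 236 in the DMD libraries. Its level was 0.412 ± 0.323 CPM in WT (SD, n = 3) and 10.7 ± 4.89 CPM in DMD muscle (SD, n = 3), a log2 fold change of 4.61 ± 0.90 (SE; edgeR adjusted p = 0.00071). The WT libraries were near 0 and every DMD library was well above them. Cxcr2, the receptor for neutrophil-attracting chemokines, had 11, 5 and 0 counts in WT and 25, 172 and 164 in DMD muscle, or 0.544 ± 0.491 and 7.13 ± 4.68 CPM (SD, n = 3 each). The log2 fold change was 3.71 ± 0.90 (SE; edgeR adjusted p = 0.0033), and DMD replicate 1 was far below the other two.

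Mmp8, the neutrophil collagenase, was all but undetected in WT muscle at 9 months, with 0, 0 and 1 counts, and had 15, 56 and 29 counts in DMD muscle. With a single WT count the size is loosely set: the ratio of summed counts per effective library size was 61.4, with a 95% counting interval from 10.8 to 2448. The call itself passed the threshold (edgeR adjusted p = 0.0016). The interval covers counting error only. The calls of Csf3r, Cxcr2 and Mmp8 in DMD against WT held in all 22 alternative analyses.

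S100a8 and S100a9, the subunits of calprotectin, had the widest range between libraries of the 5 genes. S100a8 had 3, 5 and 25 counts in WT and 46, 343 and 135 in DMD muscle, with a log2 fold change of 3.20 ± 0.99 (SE; edgeR adjusted p = 0.015). S100a9 had 7, 7 and 36 counts in WT and 54, 662 and 270 in DMD muscle, with a log2 fold change of 3.50 ± 1.07 (SE; edgeR adjusted p = 0.014). WT replicate 3 was the highest WT library for both genes and DMD replicate 2 the highest DMD library. Both calls were lost when any of 3 libraries was left out: adjusted p was 0.065 and 0.062 without WT replicate 1, 0.055 and 0.053 without WT replicate 2, and 0.067 and 0.060 without DMD replicate 2, for S100a8 and S100a9 in edgeR's test. Per unit of transcript length, S100a8 was the most abundant of the 9 genes in DMD muscle, at 102 ± 64.8 TPM (transcripts-per-million; SD, n = 3), against 67.9 ± 51.3 TPM for S100a9, 6.94 ± 3.38 for Csf3r, 2.76 ± 1.86 for Cxcr2 and 1.91 ± 0.792 for Mmp8. The spread between libraries was larger than the distance from S100a8 to S100a9.

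**Figure D1:**
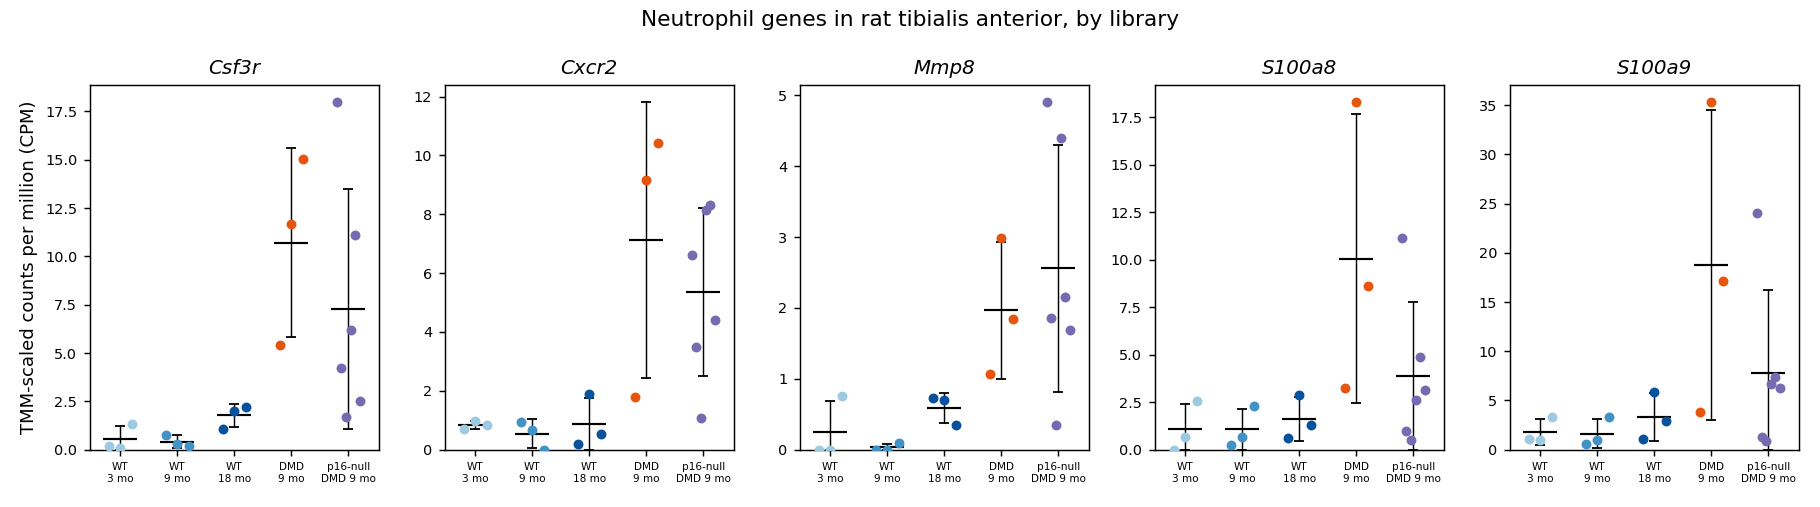
CPM of the 5 neutrophil genes in each of the 18 libraries (points), by group, with the mean (bar) and SD (whisker, drawn from 0 where it would fall below it). All 3 DMD libraries lie above all 3 WT libraries of 9 months for each gene, and the 6 p16-null DMD libraries spread widely.

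The p16-null DMD libraries also held transcripts of the 5 neutrophil genes. Which cells made these transcripts was not tested, and bulk RNA does not show it. The lowest, median and highest counts over the 6 libraries were 30, 96.5 and 231 for Csf3r, 19, 76.5 and 187 for Cxcr2, 6, 26 and 101 for Mmp8, 9, 53.5 and 143 for S100a8, and 16, 92.5 and 309 for S100a9. Against WT muscle at 9 months, which is the same control group as above, 3 of the 5 genes were higher, where 27.5% of all genes tested were (50.2% in either direction). Csf3r differed by 4.04 ± 0.86 on the log2 scale (SE; edgeR adjusted p = 0.0012) and Cxcr2 by 3.29 ± 0.84 (SE; edgeR adjusted p = 0.0046). For Mmp8 the ratio was 78.0, with a 95% counting interval from 13.9 to 3093 (edgeR adjusted p = 0.00058). S100a8 (1.80 ± 0.91, SE, edgeR adjusted p = 0.11) and S100a9 (2.21 ± 0.99, SE, edgeR adjusted p = 0.075) did not pass. Without p16-null DMD replicate 2 or 3, S100a9 passed (adjusted p = 0.047 and 0.036). Over all fits with 1 library left out, edgeR adjusted p ran from 0.055 to 0.32 for S100a8 and from 0.036 to 0.23 for S100a9. Both genes passed with scaling to library totals (S100a8 2.36, adjusted p = 0.033, and S100a9 2.78, adjusted p = 0.022), but the median gene then stood at 0.716. Measured from the median gene, they were at 1.645 and 2.06 with library totals and at 1.687 and 2.1 with TMM.

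No neutrophil gene was called between p16-null DMD and DMD muscle, where 1 of 14801 genes was called at all (0.00676%) and 764 had an unadjusted p under 0.05. The log2 differences, p16-null DMD minus DMD, were -1.40 ± 0.71 for S100a8 and -1.29 ± 0.76 for S100a9 (SE; edgeR adjusted p = 0.93 and 0.94). Mean S100a8 was 3.88 ± 3.88 CPM (SD, n = 6) in p16-null DMD and 10.1 ± 7.62 CPM (SD, n = 3) in DMD muscle. For Csf3r, Cxcr2 and Mmp8 the differences were -0.57 ± 0.57, -0.42 ± 0.60 and 0.37 ± 0.62 (SE). Leaving out 1 library moved S100a8 from -2.06 (without p16-null DMD replicate 1) to -0.64 (without DMD replicate 2) and S100a9 from -2.06 to -0.46 with the same libraries. The dystrophic groups overlapped for all 5 genes. Of all genes, 1.1% lay wholly higher in p16-null DMD and 0.905% wholly lower. With these errors, failing the threshold does not show that the groups were alike.

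Mast cell genes were well detected in every library, healthy muscle included, and differed less between groups. In DMD against WT muscle at 9 months 2 of the 4 were higher, Kit and Cma1, with log2 fold changes of 0.73 and 0.90, against the 26.4% of all genes called higher. All 4 estimates were above 0, from 0.39 to 0.90. Whether the neutrophil and mast cell genes differ in their fold changes was not tested.

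Kit, the stem cell factor receptor, had 65, 64 and 56 counts in WT and 199, 124 and 176 in DMD muscle, or 6.48 ± 1.89 and 10.7 ± 3.79 CPM (SD, n = 3 each). The groups overlapped, and the log2 fold change was 0.73 ± 0.29 (SE; edgeR adjusted p = 0.047). That call was lost in 14 of 22 alternatives, with adjusted p reaching 0.22 without DMD replicate 1, so it sits at the threshold. Ms4a2, the beta chain of the IgE receptor, had 46, 29 and 43 counts in WT and 125, 103 and 71 in DMD muscle. All DMD libraries were above the WT ones, yet the difference of 0.68 ± 0.36 (SE) was not called (edgeR adjusted p = 0.14).

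Cpa3, the granule carboxypeptidase, had 177, 120 and 201 counts in WT and 426, 266 and 330 in DMD muscle. On the CPM scale the groups overlapped, at 16.7 ± 1.60 and 21.8 ± 8.07 (SD, n = 3 each), with a log2 difference of 0.39 ± 0.29 (SE; edgeR adjusted p = 0.28). Cma1, the chymase, had 179, 101 and 191 counts in WT and 610, 393 and 357 in DMD muscle, or 15.6 ± 1.96 and 29.0 ± 12.4 CPM (SD, n = 3 each). All DMD libraries exceeded all WT libraries, with a log2 fold change of 0.90 ± 0.32 (SE; edgeR adjusted p = 0.032). DMD replicate 1 was the highest for all 4 mast cell genes. Without it the Cma1 difference was 0.48 (adjusted p = 0.22), without WT replicate 1 it was 0.90 (adjusted p = 0.073), and without WT replicate 2 it was 0.82 (adjusted p = 0.094). Cma1 belongs to a family of closely related protease genes, so its counts are uncertain where reads were shared among them.

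These small differences depend on the scale. With library totals in place of TMM all 4 mast cell genes were called higher in DMD muscle (log2 1.39 for Kit, 1.32 for Ms4a2, 1.04 for Cpa3 and 1.55 for Cma1), but the median gene then stood at 0.76. Measured from the median gene, the differences were 0.63, 0.56, 0.29 and 0.79 with library totals and 0.62, 0.56, 0.28 and 0.79 with TMM. Library totals also moved the share of all calls that were higher in DMD from 54.8% to 86.1%.

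In TPM, Cma1 (68.0 ± 31.2) and Cpa3 (33.4 ± 14.1) were more abundant in DMD muscle than Kit (5.55 ± 2.29) and Ms4a2 (4.95 ± 1.93; SD, n = 3 each). In WT muscle at 9 months Cma1 was at 21.4 ± 3.86 TPM and Cpa3 at 14.6 ± 2.12 TPM (SD, n = 3), and at 3 months they were level within their spread, at 23.4 ± 6.73 and 23.1 ± 8.0 TPM. In DMD muscle Kit and Ms4a2 lay within each other's spread. TPM values are not TMM-scaled, and on log2(TPM + 1) the median gene stood 0.645 higher in DMD than in WT muscle. The TPM values here therefore rank genes within a group and do not measure differences between groups.

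**Figure D2:**
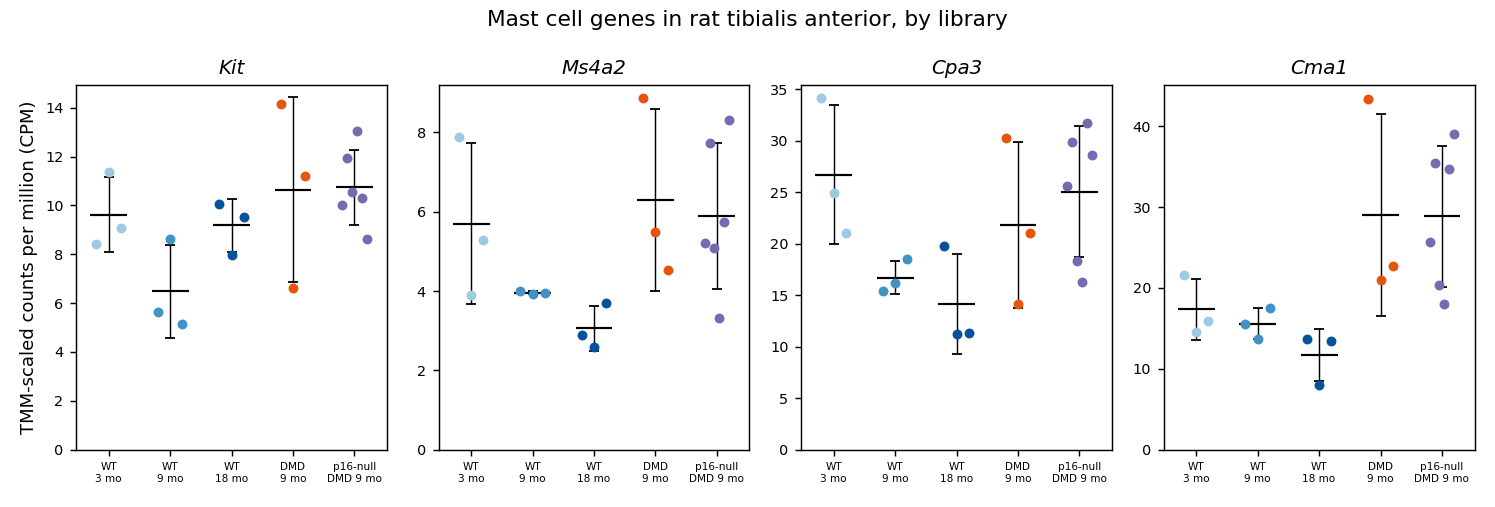
CPM of the 4 mast cell genes in each of the 18 libraries (points), by group, with the mean (bar) and SD (whisker). DMD replicate 1 is the highest DMD library in all 4 panels, and the DMD and WT libraries of 9 months overlap for Kit and Cpa3.

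In p16-null DMD muscle the lowest, median and highest counts were 124, 150 and 299 for Kit, 67, 82.5 and 128 for Ms4a2, 321, 377.5 and 440 for Cpa3, and 330, 415 and 601 for Cma1. Against the same WT libraries, Kit (0.75 ± 0.26, SE, edgeR adjusted p = 0.024) and Cma1 (0.89 ± 0.29, SE, edgeR adjusted p = 0.019) were called higher, where 27.5% of all genes were. Cpa3 (0.59 ± 0.26, edgeR adjusted p = 0.067) and Ms4a2 (0.58 ± 0.32, edgeR adjusted p = 0.15; both SE) did not pass. Kit no longer passed when WT replicate 1 (adjusted p = 0.094) or 3 (0.11) was left out, and Cma1 no longer passed when WT replicate 1 (0.055) or 2 (0.073) was. Cpa3 came to pass when any of 4 libraries was left out, p16-null DMD replicates 3 (adjusted p = 0.045) and 4 (0.026) and DMD replicates 1 (0.043) and 2 (0.041). Between p16-null DMD and DMD muscle the differences were 0.02 ± 0.24 for Kit, -0.10 ± 0.30 for Ms4a2, 0.20 ± 0.25 for Cpa3 and -0.01 ± 0.27 for Cma1 (SE), none called, with overlapping groups.

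**Figure D3:**
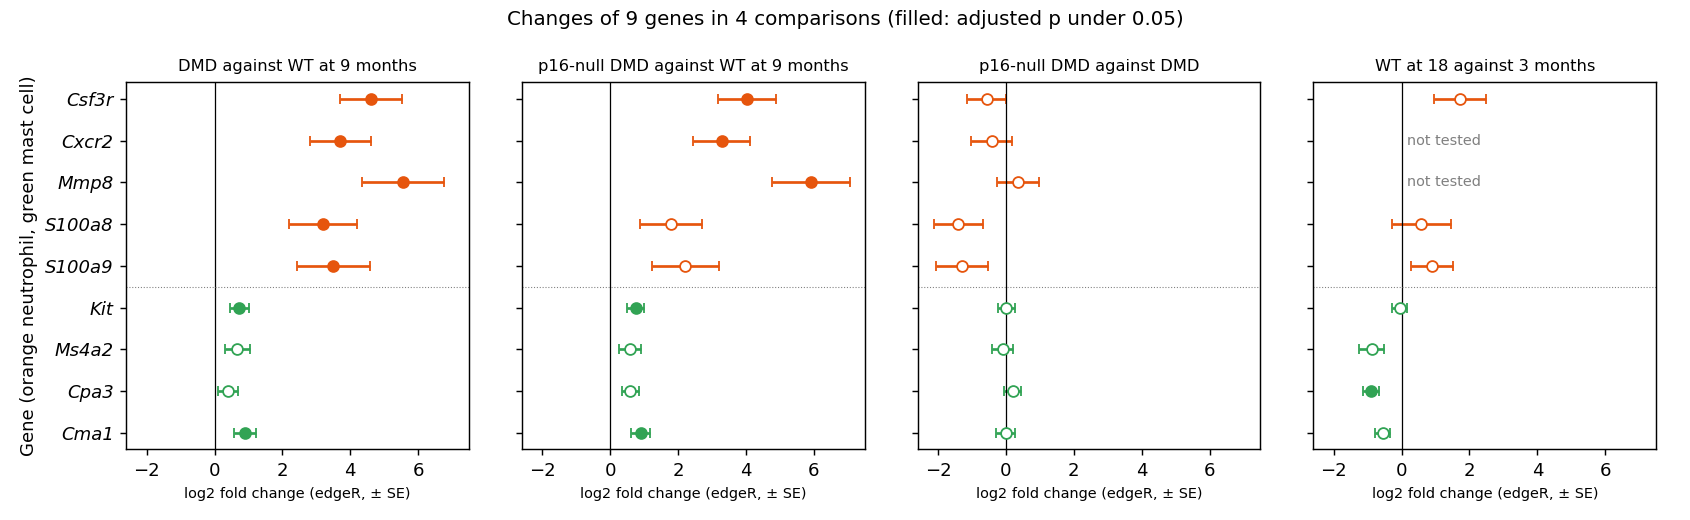
Log2 fold changes of the 9 genes in the 4 comparisons (points, edgeR fit) with their standard errors (bars), marked where the adjusted p is under 0.05. In DMD against WT, Csf3r, Cxcr2, S100a8 and S100a9 lie from 3.20 to 4.61 and the 4 mast cell genes from 0.39 to 0.90. The fitted value of Mmp8 rests on 1 count in WT muscle and is no measure of its size.

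In WT muscle 1 of the 9 genes was called between 18 and 3 months, with 19.4% of all 13487 genes tested called in either direction, 9.31% higher and 10.1% lower. Cpa3 was lower at 18 than at 3 months and no neutrophil gene was called. Cpa3 had 385, 256 and 222 counts at 3 months and 218, 113 and 132 at 18 months, a log2 change of -0.91 ± 0.24 (SE; edgeR adjusted p = 0.014), with all 18-month libraries below the 3-month ones. For Cma1 the change was -0.56 ± 0.23 (SE; edgeR adjusted p = 0.11) and for Ms4a2 -0.89 ± 0.36 (SE; edgeR adjusted p = 0.099), also without overlap, which 18.5% of all genes showed in that direction. Kit differed by -0.06 ± 0.22 (SE; edgeR adjusted p = 0.88). The Cpa3 call was lost without 3-month replicate 1 (-0.69, adjusted p = 0.062), 18-month replicate 2 (-0.77, 0.074) or 18-month replicate 3 (-0.77, 0.076), and with library totals (-0.69, 0.064).

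Transcripts of the neutrophil genes were scarce in WT muscle at both ages. Csf3r had 2, 1 and 14 counts at 3 months and 12, 20 and 26 at 18 months, with overlapping groups and a log2 difference of 1.73 ± 0.76 (SE; edgeR adjusted p = 0.13). Without 3-month replicate 3, which held 14 of the 17 counts of its group, the difference was 3.56 (adjusted p = 0.014). S100a8 had 0, 7 and 27 counts at 3 months and 7, 29 and 15 at 18 months, and S100a9 had 12, 10 and 35 and then 12, 59 and 34. Neither was called (0.58 ± 0.88 and 0.89 ± 0.62, SE; edgeR adjusted p = 0.70 and 0.36). Cxcr2 and Mmp8 were too low to be tested, with 27 counts in each group for Cxcr2 and 8 and 19 for Mmp8 at 3 and 18 months. The 3-month replicate 3 and 18-month replicate 2 had the most S100a8 and S100a9 of their groups.

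The dystrophic libraries differed from each other far more in neutrophil genes than in mast cell genes. Over the 9 DMD and p16-null DMD libraries the ratio of the highest to the lowest CPM was 38.7 for S100a9, 35.6 for S100a8, 14.3 for Mmp8, 10.5 for Csf3r and 9.63 for Cxcr2. It was 2.14 for Kit, 2.24 for Cpa3, 2.41 for Cma1 and 2.68 for Ms4a2. The coefficient of variation was 56.7% to 103% for the neutrophil genes and 21.0% to 32.1% for the mast cell genes, against a median of 22.3% over all genes tested. Counting error alone would give 7.35% to 16.1% for the neutrophil genes. DMD replicates 2 and 3 and p16-null DMD replicate 1 had the highest summed levels of the 5 genes, and p16-null DMD replicates 3 and 2 and DMD replicate 1 the lowest.

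The 5 neutrophil genes were high or low in the same libraries across these 9 libraries. Pearson's r of log2(CPM + 1) ran from 0.61 to 0.98 over the 10 pairs and Spearman's rho from 0.52 to 0.93. Within the 6 p16-null DMD libraries r ran from 0.75 to 0.98. S100a8 and S100a9 had the highest r, 0.98 (rho 0.93), and 0.96 without the 2 libraries farthest from the median of S100a8. Over the 10 pairs the r without such libraries was at least 0.19. The pairs of Mmp8 were the low ones, at 0.245 with Csf3r, 0.298 with Cxcr2, 0.194 with S100a8 and 0.364 with S100a9. The other pairs stayed at 0.69 or more. Cma1 went with Ms4a2 (r = 0.91, rho 0.92) and Cpa3 (r = 0.90, rho 0.83), while Kit did not, with r of -0.01, 0.37 and 0.20 to Ms4a2, Cpa3 and Cma1. Without the 2 libraries farthest from the median of Kit, its r to Ms4a2, Cpa3 and Cma1 was -0.62, -0.52 and -0.58. Within the 6 p16-null DMD libraries it was -0.61, -0.51 and -0.57. There the r of Cma1 was 0.91 to Ms4a2 and 0.95 to Cpa3. These values describe 9 libraries, whose points share each library's depth and scaling factor, and no p is attached. Which cells made the transcripts that go together was not tested.

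Between the 2 sets, all 20 pairs had a negative r over the 9 libraries (-0.55 to -0.08). This did not hold within the p16-null DMD libraries, where 8 of the 20 were negative and r ran from -0.37 to 0.33. DMD replicate 1, the highest DMD library in mast cell genes, was the lowest DMD library in every neutrophil gene. The summed neutrophil counts divided by the summed mast cell counts were 0.159, 1.64 and 0.893 in DMD replicates 1 to 3, and 0.0642, 0.0605 and 0.130 in the WT libraries of 9 months.

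**Figure D4:**
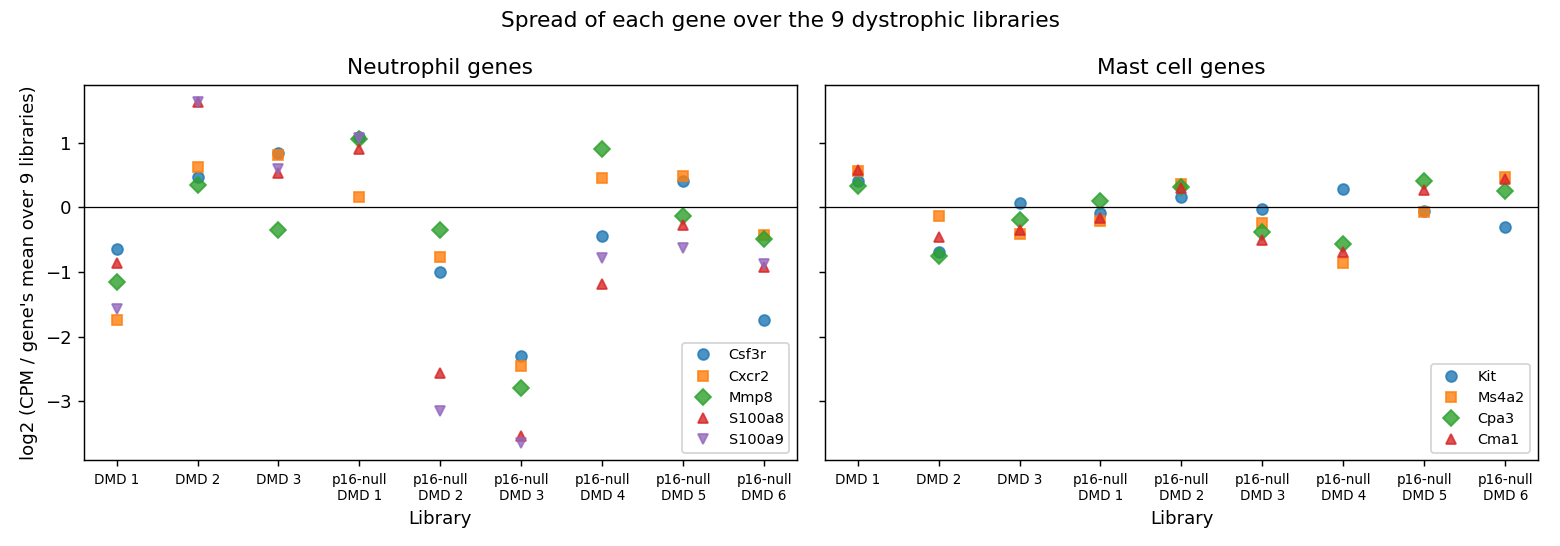
CPM of each of the 9 genes in the 3 DMD and 6 p16-null DMD libraries, drawn relative to the mean of those 9 libraries. The neutrophil genes span 9.63-fold to 38.7-fold between libraries and the mast cell genes 2.14-fold to 2.68-fold.

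Genes with the most similar pattern over the 9 libraries were named by a fixed rule. Csf3r was nearest to Emp3 (r = 0.99), Matk and Clic1 (both 0.98), Cxcr2 to Kcnn4, Plin2 and Faap100 (all 0.96), and Mmp8 to Tpp2 (0.97), Peg12 (0.93) and Amigo3 (0.91). S100a8 was nearest to S100a9 (0.98), Lst1 and Lrrfip1 (both 0.97), and S100a9 to S100a8, Lrrfip1 and Il17ra (both 0.96). Kit was near to Rprd1b (0.97) and Diras3 (0.96), Ms4a2 to Hhat (0.97), Ccdc152 (0.95) and Trdmt1 (0.94), Cpa3 to RGD1560028 (0.94), Golga5 (0.92) and Zfp17 (0.91), and Cma1 to Zfp267 (0.97), Golga5 and Mcpt1l1 (both 0.95). Over all 18 libraries the r of Mmp8 to Tpp2 was -0.29 and that of Kit to Rprd1b -0.32, while that of S100a8 to S100a9 was 0.98. Each was picked as the highest r among all genes tested.

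Most of the other neutrophil genes that could be tested were also higher in DMD muscle. Of 24 listed genes 23 had an entry (Cybb had none), and Ctsg was at 0 in every library. The filter on low counts left 13 to be tested, with a median of 2.79 against 0.11 over all genes. Of these, 10 were called higher and none lower in DMD against WT (26.4% of all genes were called higher). The integrin chains Itgb2 (3.09 ± 0.54) and Itgam (2.71 ± 0.62) and the NADPH oxidase subunits Ncf4 (2.17 ± 0.42) and Ncf1 (1.43 ± 0.48; all log2 fold change ± SE) were among them. Against WT, 11 of the 13 were higher in p16-null DMD muscle, where 27.5% of all genes were, and none was called between the dystrophic groups. With age 2 of 7 tested were higher, against 9.31% of all genes, Itgam (1.40 ± 0.29, SE, edgeR adjusted p = 0.0032) and Itgb2 (1.02 ± 0.23, SE, edgeR adjusted p = 0.0056). Itgam, Itgb2, Ncf1 and Ncf4 are also made by monocytes and macrophages.

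Other mast cell genes showed a mixed picture. Of 21 listed, 18 had an entry (Mcpt1, Mcpt2 and Mcpt10 had none) and 13 were tested, of which 4 were higher and 1 lower in DMD against WT muscle, where 26.4% of all genes were higher and 21.8% lower. Fcer1g, the signalling chain that the IgE receptor shares with Fc receptors of macrophages, was higher by 2.50 ± 0.35 (SE; edgeR adjusted p = 5.2e-05), and Il1rl1, the IL-33 receptor, by 2.44 ± 0.37 (SE; edgeR adjusted p = 9.1e-05). The protease Mcpt1l1 had 492, 223 and 403 counts in WT and 788, 567 and 497 in DMD muscle, a log2 difference of 0.11 ± 0.31 (SE; edgeR adjusted p = 0.80), and Mitf and Alox5 were not called either (near 0 with SE 0.17, and 1.16 ± 0.58, SE). In p16-null DMD against WT muscle 6 were higher and 1 lower, where 27.5% of all genes were higher and 22.7% lower. With age 1 of 11 tested was called lower, against 10.1% of all genes, and it was Mcpt1l1, lower at 18 months (log2 change -0.91 ± 0.15, SE, edgeR adjusted p = 0.00067).

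Ligands and growth factors of the 2 cell types were mostly too low to test. Il33, an alarm cytokine that acts on mast cells, had 355, 323 and 433 counts in WT and 868, 1180 and 1266 in DMD muscle (0.85 ± 0.17, SE, edgeR adjusted p = 0.00079). Kitlg, stem cell factor itself, did not pass (-0.22 ± 0.18, SE, edgeR adjusted p = 0.34). Cxcl1, a CXCR2 ligand, had 10, 0 and 12 counts in WT at 9 months and 2, 152 and 89 in DMD muscle (2.73 ± 1.0, SE, edgeR adjusted p = 0.035), with overlapping groups. In WT muscle of 3 months it had 8, 40 and 10 counts. The p16-null DMD libraries had 8 to 39 counts of Cxcl1 (0.87 ± 0.91 against WT, SE, edgeR adjusted p = 0.45). Csf3, which encodes G-CSF, had 0 counts in the WT libraries of 9 months and 0, 27 and 6 in DMD muscle. So 27 of the 33 counts in DMD muscle came from DMD replicate 2, and DMD replicate 1 had none. In p16-null DMD muscle Csf3 had 5 counts over 6 libraries, and 18-month WT replicate 2 had 3. The CXCR2 ligands Cxcl2, Cxcl3 and Cxcl6 had 15, 14 and 11 counts over the 3 DMD libraries and 0 in WT muscle at 9 months. Cxcl2 had 8 counts in 3-month WT replicate 2. Ppbp and Il4 had 1 count each over the 18 libraries, and Il17a, Il3 and Il9 had 0.

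Markers of other cell types moved in different directions in DMD against WT muscle. Of 5 endothelial markers tested, 0 were called higher and 1 lower (median 0.017), where 26.4% of all genes were higher and 21.8% lower. All 10 monocyte and macrophage markers were higher in DMD than in WT muscle (median 2.72), where 26.4% of all genes were, and their levels summed to 334 to 369 CPM in 9-month WT libraries, 2057 to 3274 CPM in DMD libraries and 1416 to 4193 CPM in p16-null DMD libraries, with p16-null DMD replicate 1 the highest. The sum was 317 to 481 CPM in the 3-month WT libraries and 566 to 818 CPM in the 18-month ones. Csf3r was also highest in p16-null DMD replicate 1 (18.0 CPM) and DMD replicate 3 (15.0 CPM), where the sums were 4193 and 3274 CPM. It was lowest of the dystrophic libraries in p16-null DMD replicates 3 and 6 (1.71 and 2.53 CPM), with sums of 1466 and 1416 CPM. S100a8 and S100a9 were highest in DMD replicate 2 (18.3 and 35.3 CPM), where the sum was 2169 CPM. How far the neutrophil genes followed this sum was not tested. Of 8 red cell markers 5 had an entry, and their summed CPM ran the other way, at 1047 to 1311 CPM in 9-month WT libraries against 149 to 275 CPM in DMD libraries. Muscle fibre markers were lower in DMD muscle, 6 of 6 tested, where 21.8% of all genes were. Of 6 basophil markers 4 had no entry, the protease Prss34 was at 0 in every library, and Il3ra, a cytokine receptor chain that other cells also make, was higher in DMD muscle (70, 25 and 56 counts in WT and 123, 170 and 151 in DMD; 0.90 ± 0.25, SE, edgeR adjusted p = 0.0081). Of 5 melanocyte markers Dct, Tyr and Tyrp1 were at 0 in every library, while Pmel had 4, 7 and 5 counts in WT and 20, 11 and 13 in DMD muscle (0.73 ± 0.81, SE, edgeR adjusted p = 0.48). Mlana had 0 counts in WT at 9 months and 0, 2 and 5 in DMD muscle. Summed melanocyte markers came to 0.348 to 0.945 CPM for the 9-month WT libraries, 0.693 to 1.42 CPM for DMD, and 0.584 to 2.17 CPM for p16-null DMD. Of the 6 eosinophil markers, Epx and Prg2 had 4 and 29 counts over 18 libraries, and Siglec5 had 9, 2 and 24 counts in WT and 49, 28 and 44 in DMD muscle (1.21 ± 0.69, SE, edgeR adjusted p = 0.17). Summed eosinophil markers came to 0.405 to 2.48 CPM for the 9-month WT libraries, 2.56 to 6.11 CPM for DMD, and 1.10 to 22.02 CPM for p16-null DMD. Ccr3, a chemokine receptor of eosinophils, had 184 counts in p16-null DMD replicate 1 and 2 to 60 in the other dystrophic libraries. The part of these cells in the results was not tested.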

How the data were processed

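RNA of frozen tibialis anterior sections was sequenced from 18 rat libraries of 9, 3 or 18 months. The deposited table of expected counts per gene and the deposited TPM values come from the authors; per the submitters' processing notes the tools were Trimmomatic, FastQC, STAR 2.7.10b and RSEM 1.3.3, with the build mRatBN7.2. The strand setting is not given in the sources used here, so overlapping and antisense genes cannot be told apart. Of the expected counts, 4.50% of values were not whole and were rounded here. Totals ran from 9607817 to 21992623 per library, and 7162 of the 30560 entries had no symbol. No 2 replicate libraries agreed within sampling noise (chi-square per degree of freedom 12.5 to 83.7).

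The fits were made with edgeR 4.0.16 (R 4.3.3), the 12 libraries of 9 months and the 6 WT libraries of 3 and 18 months, each with filterByExpr, TMM, glmQLFit and glmQLFTest, leaving 14801 and 13487 genes. P-values were adjusted over all genes of a fit by Benjamini-Hochberg, and 0.05 was the threshold. Standard errors are the log2 fold change divided by the root of F. CPM uses TMM over all 18 libraries. Alternatives were other scaling, filters, fits, DESeq2 1.42.0, limma 3.58.1 on log2(TPM + 1) and log2(TPM + 0.1), a replicate block and leaving out each library. Fits of only the 2 groups compared were tested on simulated data. Of 2-fold changes 52.5% were recovered in DMD against WT, 57.6% in p16-null DMD against DMD, 63.6% in p16-null DMD against WT and 69.4% with age. Of 4-fold changes 92% to 97.9% were recovered, with 5 to 12 false calls per comparison. Changes below 2-fold were not simulated. The changed genes were drawn at random from all genes, with the spread fitted for genes of like level. The neutrophil genes spread more than the median gene over the dystrophic libraries (coefficient of variation 56.7% to 103% against 22.3%). The recovered shares therefore do not apply to them.

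The members and gene lists were chosen with earlier results of these data known. The 9 genes and all 12 ligands are always named, and up to 5 genes of each other list, by total count. For likeness, the 3 genes of highest Pearson r over 9 dystrophic libraries are named. Mlana, Prss34, Dct, Epx and Ccr3 are among the genes that the rule by total count picks, but they were chosen for mention after their values were seen. Other genes named here, such as Ctsg and Cybb, lie outside that rule. Some genes that these rules pick are not reported here.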

Additional observations from a re-analysis of the deposited data

Results flagged for a closer look

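S100a9 in p16-null DMD replicate 1 stood at 24.0 CPM, apart from the other 5 libraries of its group, which lay between 0.913 and 7.39 CPM. Its gap to the nearest library was 0.72 of the group's range, over the Dixon limit for 6 samples. For values with a normal spread, chance flags about 1 in 20, and 9 genes were tested in this way. The gap was taken on unlogged CPM, whose coefficient of variation for S100a9 in this group was 109%. That rate may therefore not hold here. S100a8 (11.1 CPM), Csf3r (18.0 CPM) and Mmp8 (4.90 CPM) were also highest of the group in that library, within the same limit.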

How the results depend on the processing

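Main counts of called genes were 5 neutrophil and 2 mast cell genes in DMD against WT, 3 and 2 in p16-null DMD against WT, 0 and 0 in p16-null DMD against DMD, and 0 and 1 in 18 against 3 months. Library totals called 4 mast cell genes in DMD and in p16-null DMD against WT, 5 neutrophil genes in p16-null DMD against WT, and 0 mast cell genes with age. Limma on TPM, with either pseudocount, gave 4, 4, 5 and 0 there, and 1 neutrophil gene with age. The calls over all genes moved as well. With library totals 7691 of 14801 genes were called higher in DMD and 8071 in p16-null DMD, both against WT. With limma on log2(TPM + 1) these were 8058 and 8818, and in the main fit 3914 and 4073. With age, 652 genes were called lower with library totals and 429 with that limma fit, against 1366 in the main fit. Median-ratio (RLE) scaling, no filter, DESeq2 and a fit of only the 2 groups each called 1 mast cell gene in DMD against WT. A single fit of 18 libraries called 1742 of all genes with age, against 2622. Between p16-null DMD and DMD, DESeq2 called 12 genes of all, edgeR 1.

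The labels do not say that replicate numbers pair the samples, and they were not treated as pairs. The r of same-numbered libraries ran from -0.22 to 0.15, and 1 of 12 was over 0.1. In 10 of 24 checks a library correlated best with its own number, out of 3 candidates. With groups this small the check cannot exclude a pairing. With the replicate block, 3 neutrophil and 1 mast cell genes were called in DMD against WT, 2 neutrophil and 0 mast cell genes in p16-null DMD against WT (Cxcr2 did not pass, adjusted p = 0.051), 2 mast cell genes with age, and 0 genes of all between the dystrophic groups, where Mmp8 turned to -0.15.

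Leaving out 1 library gave 3 to 5 neutrophil and 0 to 2 mast cell genes in DMD against WT, 3 to 4 and 0 to 3 in p16-null DMD against WT, and 0 to 1 and 0 to 1 with age. Of all genes it gave 6052 to 7267 in DMD against WT and 6364 to 7539 in p16-null DMD against WT. It gave 1 to 85 of all genes between p16-null DMD and DMD (85 without DMD replicate 1) and 1696 to 2415 with age. Of p16-null DMD against DMD differences near 0, Kit turned to -0.035 with library totals and to -0.0012 in a fit of the 2 groups, and Cma1 to 0.026 and 0.027 on TPM with pseudocounts of 1 and 0.1. Kit with age turned to 0.17 with library totals, and to 0.23 and 0.30 on TPM. Leaving out libraries ranged from -0.29 to 0.25 for Ms4a2, -0.20 to 0.42 for Cma1, -0.24 to 0.29 for Kit, -0.040 to 0.52 for Cpa3, -1.06 to -0.25 for Csf3r, -0.87 to -0.050 for Cxcr2 and 0.083 to 0.80 for Mmp8 between the dystrophic groups, and from -0.13 to 2.23 for S100a8 and -0.14 to 0.077 for Kit with age. The cause of these changes was not tested.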
